A study of Mus musculus with 15 samples.

Results

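DEAD box and DEAH box RNA helicases were followed in mouse cortex in a model of high-frequency head impact (HF-HI) and its Sham control, 1 month after the procedure. The members were the protein-coding transcripts whose gene name begins with Ddx or Dhx followed by a digit, with genes of chromosomes X and Y left out. This gave 33 transcripts of 31 genes, 20 named Ddx and 11 named Dhx, among 10370 transcripts with values. The annotation holds 51 such autosomal genes. The other 20, among them Dhx30 and the RNA sensors Ddx58 and Dhx58, had no protein-coding transcript with values and were not analysed here.

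The animals of both groups were male C57BL/6 mice on the labels, C57Bl/6J in the study's methods, with an age of 12 weeks on the labels. HF-HI mice received repeated closed-head impacts on consecutive days under isoflurane, and Sham mice had the same anesthesia and handling without impacts. Total RNA of the dissected cortex was sequenced in 7 Sham and 8 HF-HI libraries. The labels name each library as a separate sample and do not say how many animals it holds, so p-values measure the spread between these samples.

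RNA helicases of these families use ATP to unwind short RNA duplexes or to strip proteins from RNA. DEAD box members mostly pry apart local duplexes, whereas DEAH box members tend to move along a strand. Between them they drive the steps of splicing, ribosome assembly, mRNA export, translation and mRNA decay. In neurons, helicases such as Ddx6 are known components of the granules that hold mRNA in a repressed state.

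The families are named after 4 amino acids of the ATP-hydrolysing site, so the codons of that box were read from the transcripts (GENCODE M21, GRCm38). The reading frame was searched for aspartate, then aspartate or glutamate, then alanine, cysteine, isoleucine, serine or valine, then aspartate or histidine, in a fixed hydrophobic setting, with the pattern widened after a first search. All 31 genes had a match in at least 1 transcript. The box read DEAD in 16 genes, all of them Ddx, and DEAH in 6 genes, all of them Dhx. The others were 2 DEVD, 1 DECD and 1 DESD among Ddx genes, and 2 DEIH, 2 DEVH and 1 DDVH among Dhx genes. The DEAD codons were spelled in 9 ways and the DEAH codons in 6. The stretches below show the box codons in capitals, 5′ to 3′, for the genes with the lowest p in the comparison of the groups, for the most abundant member Ddx5, and for Ddx39b, whose box departs from the family name.
Ddx19b: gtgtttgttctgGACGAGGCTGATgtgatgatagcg
Ddx10: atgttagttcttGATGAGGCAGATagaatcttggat
Dhx8: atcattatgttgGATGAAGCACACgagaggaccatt
Ddx46: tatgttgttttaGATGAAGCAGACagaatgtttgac
Ddx5: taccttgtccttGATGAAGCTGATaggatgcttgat
Ddx39b: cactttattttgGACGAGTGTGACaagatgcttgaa

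Depth differed between the groups. Recovered reads in the transcripts with values lay between 5798810 and 10582858 per Sham library and between 3496103 and 8666307 per HF-HI library, and size factors between 0.818 and 1.47 and between 0.501 and 1.22. All 8 of 8 markers of cortical glutamatergic neurons had values, with a summed level of 15748 to 17625 normalized counts in Sham and 16657 to 18692 in HF-HI. The lowest mean of any transcript with values was 107.9 normalized counts. The presence of markers is therefore no check of the cortical label. Markers of striatal neurons, 7 of 8 with values, summed to 7013 to 10672 in Sham and 4993 to 10106 in HF-HI. Of 6 choroid plexus markers only Ttr had values, at 35.0 to 6685 normalized counts in Sham and 21.04 to 8663 in HF-HI, highest in HF-HI replicate 2. In whole cortex, fewer cells of a type and less RNA per cell cannot be told apart. The part of depth in the helicase differences was tested only where a value with depth in the model is given. The part of tissue makeup was not tested. Leaving out HF-HI replicate 2 keeps another HF-HI library with Ttr at 8165 normalized counts.

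Helicase levels spanned a wide range. On the scale of normalized counts per kb of transcript, Ddx5, a coregulator of transcription and splicing, was highest at 1546 ± 43.1 (SD, n = 7) in Sham and 1554 ± 61.1 (SD, n = 8) in HF-HI. Its paralog Ddx17 followed at 514 ± 16.5 per kb in Sham and 520.1 ± 14.7 in HF-HI. Ddx6, which represses translation and promotes decapping, reached 351 ± 12.6 per kb in Sham and 363 ± 21.2 in HF-HI. Ddx24, a ribosome biogenesis factor, lay at 359 ± 23.8 per kb in Sham and 352 ± 19.8 in HF-HI. Dhx15, which takes apart spent spliceosomes, completed the 5 highest at 241 ± 9.44 per kb in Sham and 247 ± 9.52 in HF-HI. At the other end were Ddx21, a nucleolar factor of ribosomal RNA synthesis, at 43.7 per kb over all 15 libraries, the translation initiation helicase Dhx29 at 42.0 and Ddx25, best known from the testis, at 31.0.

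Of the 30 pairs of neighbours in this order, 25 had overlapping ranges over the libraries. The ranges were separate for Ddx5 above Ddx17, Ddx17 above Ddx6, Ddx24 above Dhx15, Ddx50 above Dhx36, and Dhx29 above Ddx25. The median level was 91.8 per kb over the 21 Ddx transcripts and 58.9 over the 12 Dhx transcripts. Over all members it was 67.7 per kb, beside 96.0 over the 9435 protein-coding transcripts with values.

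**Figure D1:**
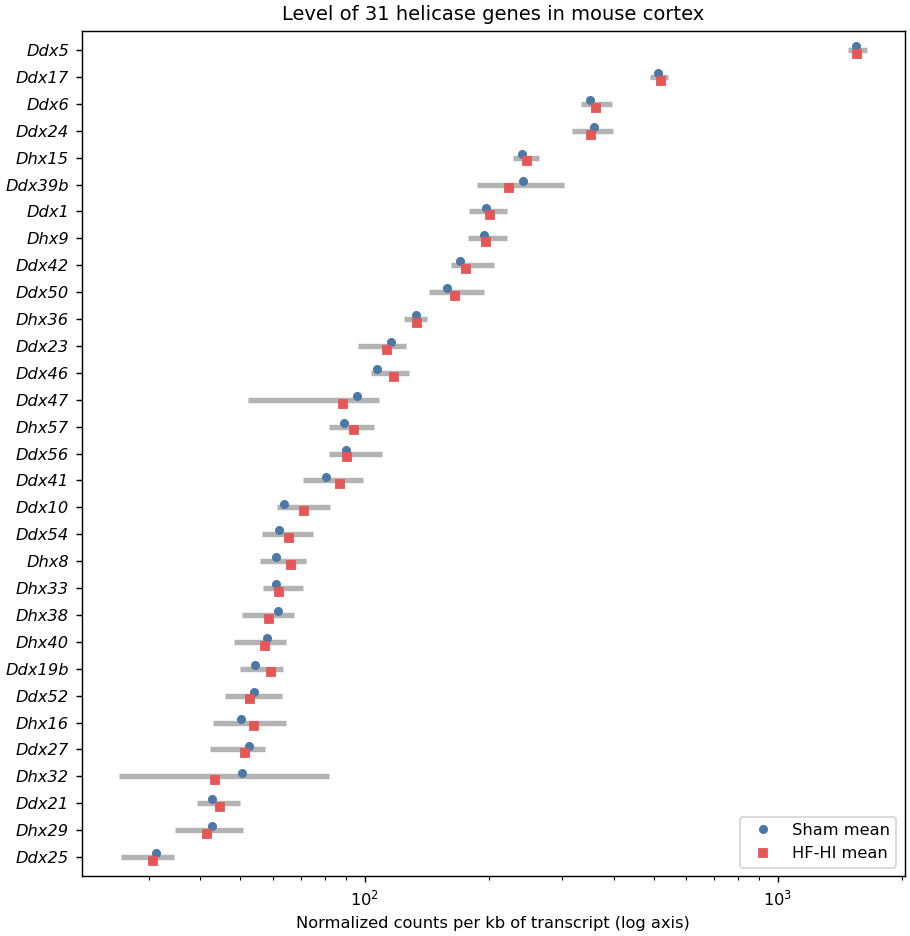
Level of each of the 31 helicase genes in normalized counts per kb of protein-coding transcript (log axis), as the Sham mean (circles), the HF-HI mean (squares) and the range over all 15 libraries (grey bars). Ddx5 stands apart at 1550.0 per kb over all libraries, and Ddx25 is lowest at 31.0.

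At the median, helicase transcripts varied less between libraries of a group than all transcripts did. The median coefficient of variation of a member transcript was 6.63% in Sham and 7.80% in HF-HI, beside 10.5% and 12.4% over all transcripts. The median level was 276 normalized counts over the members and 316 over all transcripts. Of the 31 helicase genes, 29 had 1 protein-coding transcript with values. Of all 10370 transcripts of any type, 4138 belonged to genes with 2 or more. The part of this makeup in the variation was not tested. Ddx5-201 had 2.79% in Sham and Ddx17 3.22%. Dhx32, singled out after its values were seen, had 36.6% in Sham and 29.8% in HF-HI. Its exons share 204 bases with those of Bccip on the opposite strand, and whether the counting used strand is not given in the sources used here. Longer opposite-strand overlaps were found in Ddx54 (783 bases with Gm43579, 7.15% in Sham) and Ddx41 (306 bases with Gm46416, 9.06%). Dhx57 shares 255 bases with AC132910.1, with 26.7% in Sham for Dhx57-201 and 17.5% for Dhx57-202. Of these partners only Bccip had values. The part of such overlaps in the variation was not tested.

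The comparison of HF-HI with Sham asks whether helicase expression differed 1 month after the impacts. Differences were small and of both signs, with a positive VSD (variance-stabilized) difference in 20 of 33 helicase transcripts and a negative one in 13. Of the 33, 4 (12.1%) had an unadjusted p under 0.05 in limma on the VSD values, which is termed a call here. The share over all transcripts was 8.83%, so the count is near the background and is no result about the family. All 4 were higher in HF-HI, where 4.94% of all transcripts had such a p and a higher value. They were Ddx19b, Ddx10, Dhx8 and Ddx46-202. No helicase passed the threshold of 0.1 on the Benjamini-Hochberg adjusted p in limma, and neither did any other transcript (0%). The study itself, with DESeq2 on counts, reported genes that differed between these groups at 1 month. The reason for the unlike outcome was not tested. The smallest adjusted p among the helicases was 0.398 in limma.

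When reads were summed over the transcripts of each gene and fitted with limma voom, 3 of 31 helicase genes (9.68%) had an unadjusted p under 0.05. Over all genes the share was likewise 9.44% in either direction and 5.19% for higher values in HF-HI. The 3 genes were Ddx46, Ddx19b and Ddx10, all higher in HF-HI. No helicase gene had an adjusted p under 0.1, beside 0.0129% of all genes, which is 1 gene. On the log2 scale the differences of the helicase genes ran from −0.27 to 0.14 with a median of 0.02, beside −0.00 over all genes. A positive difference was seen in 21 of 31 helicase genes and in 48.0% of all genes. For 29 of the 31 the 95% interval lay within 0.3 of 0 on the log2 scale, and the exceptions were Dhx32 and Ddx47.

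**Figure D2:**
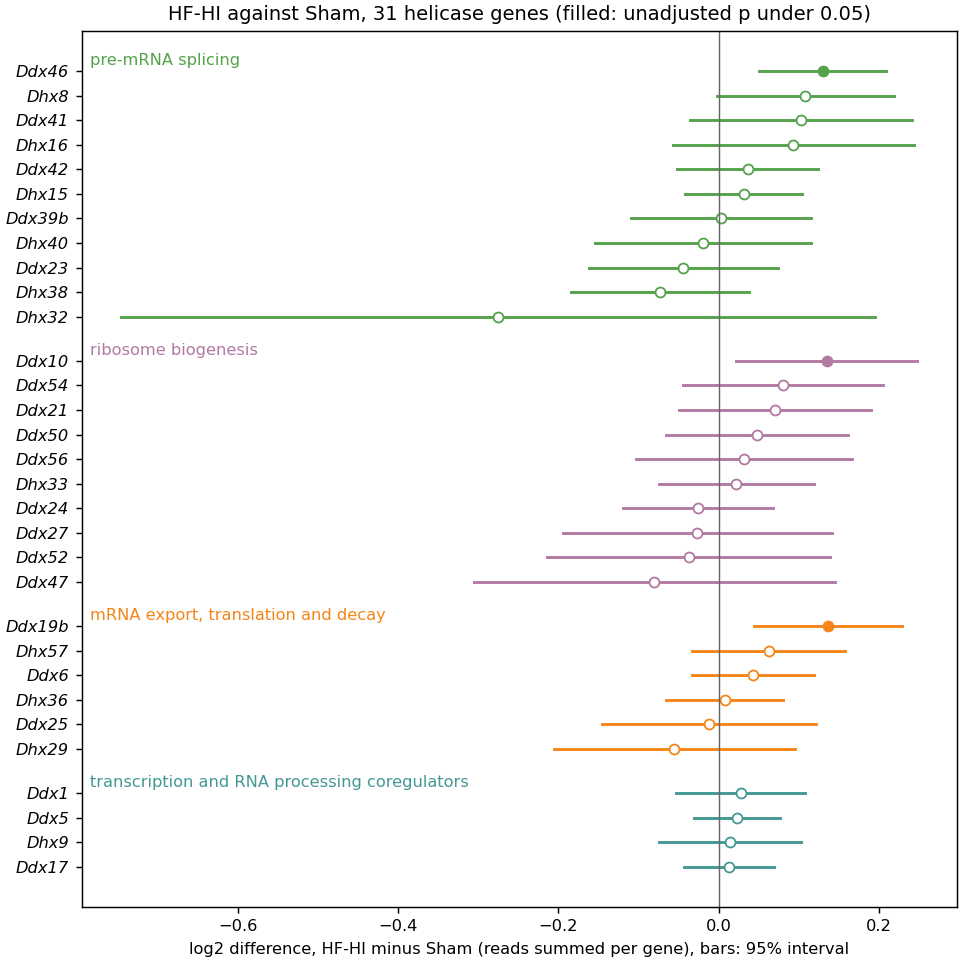
Difference between HF-HI and Sham for 31 helicase genes on the log2 scale, from reads summed per gene, with 95% intervals, grouped by role. Filled points are Ddx46, Ddx19b and Ddx10, the genes with an unadjusted p under 0.05, at 0.13, 0.14 and 0.13.

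Ddx19b, an export helicase that releases mRNA at the nuclear pore, separated the groups completely. Its transcript (chr8:111003188-111027764, minus strand, 12 exons) had 330.1, 355 and 380.3 normalized counts in Sham (lowest, median, highest) and 382, 389.9 and 419.9 in HF-HI. All 8 HF-HI libraries lay above all 7 Sham libraries, although the gap between the groups was narrow. It was the only member without overlap, and 0.154% of all transcripts, 16 in number, had groups without overlap. The mean was 359 ± 20.96 (SD, n = 7) in Sham and 393 ± 12.9 (SD, n = 8) in HF-HI, 9.68% higher. On the VSD scale the difference was 0.04 ± 0.01 (SE), with an unadjusted p = 0.00645 and an adjusted p = 0.398 in limma. An exact two-sided permutation of the mean normalized counts, added after seeing the data, gave p = 0.000155. This is the smallest that the 6435 divisions of the libraries allow, and 11 transcripts of the whole series had it. It was 0.1465 after adjustment over all transcripts. Over 26 other settings the adjusted p in limma was between 0.326 and 0.947. The call in limma was kept with the log2 size factor in the model, where the VSD difference was again 0.04, and in each of the 15 omissions of a library, HF-HI replicate 2 included. Of the 50-base windows of this transcript, 12.7% also occur in Ddx19a, so reads of the pair could be divided between them.

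Ddx10, a helicase needed for assembly of the small ribosomal subunit, was tight in Sham and wider in HF-HI. Its transcript (chr9:53098635-53248053, minus strand, 18 exons) had 192, 200.1 and 207 normalized counts in Sham and 196, 219 and 258 in HF-HI. The highest value was in HF-HI replicate 2, and 7 of 8 HF-HI libraries lay above every Sham library, with replicate 5 inside the Sham range. The mean was 199 ± 5.30 (SD, n = 7) in Sham and 223 ± 18.5 (SD, n = 8) in HF-HI, 11.6% higher. The VSD difference was 0.04 ± 0.01 (SE), with an unadjusted p = 0.0185 and an adjusted p = 0.476 in limma. The exact two-sided permutation p was 0.0042. After adjustment over all transcripts the permutation p was 0.334. Without HF-HI replicate 2 the VSD difference was 0.03 and the call in limma was kept. With the log2 size factor in the model the difference was also 0.03 and the call was lost.

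Dhx8, a DEAH box protein that releases finished mRNA from the spliceosome, differed less firmly. Its transcript (chr11:101732950-101767358, plus strand, 23 exons) had 242, 264 and 296 normalized counts in Sham and 274, 281 and 312 in HF-HI. The groups overlapped, but every HF-HI value exceeded the median of the Sham group. The VSD difference was 0.03 ± 0.01 (SE), with an unadjusted p = 0.0388 and an adjusted p = 0.540 in limma. The exact two-sided permutation p was 0.0214. The permutation p was 0.460 after adjustment over all transcripts. In the fit of summed reads the log2 difference was 0.11, with a 95% interval from −0.00 to 0.22, and Dhx8 was not called, although its reads come from this 1 transcript. The transcript call in limma was lost when any of HF-HI replicates 2, 7 and 8 or Sham replicates 2, 3, 6 and 7 was left out, with VSD differences of 0.03 to 0.04 over all 15 omissions.

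**Figure D3:**
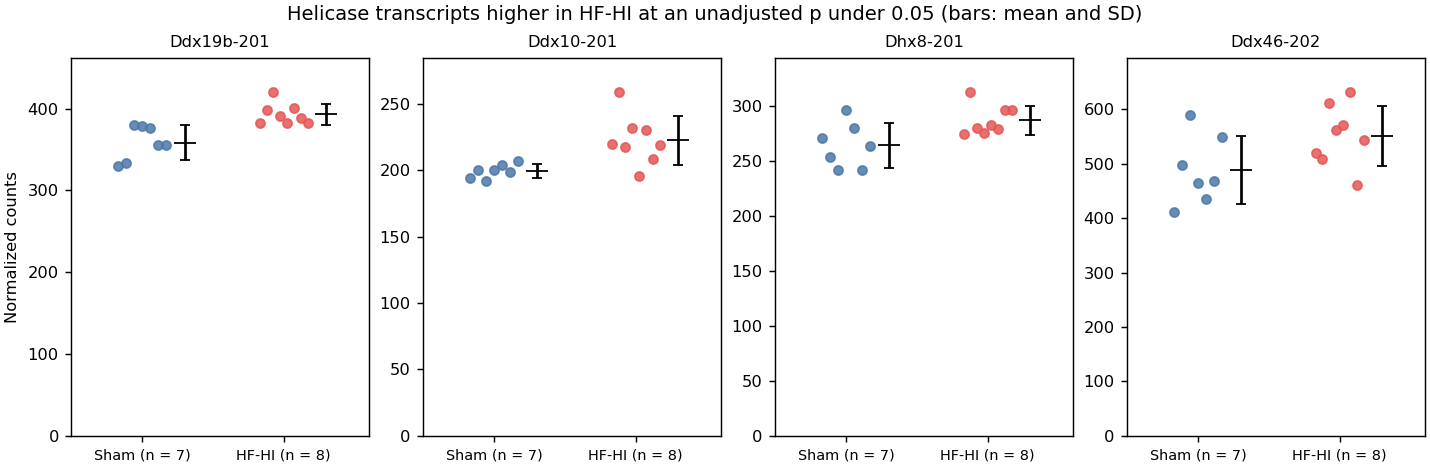
Normalized counts of Ddx19b-201, Ddx10-201, Dhx8-201 and Ddx46-202 in each of 7 Sham and 8 HF-HI libraries, with the mean and SD as bars. Only for Ddx19b-201 do the groups not overlap, with Sham up to 380.3 and HF-HI from 382.

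Ddx46, a splicing helicase that acts early, when the branch site is recognised, had 2 protein-coding transcripts with values at chr13:55635027-55681256 on the plus strand. They differ in a single stretch. Ddx46-201 extends exon 12 by 71 bases at chr13:55659099-55659169, whereas Ddx46-202 joins exon 12 to an exon 13 of 83 bases at chr13:55660717-55660799. That exon holds the codons of the DEAD box, given in capitals, and the search found no such box in Ddx46-201. The stretches are shown because they are all that tells reads of the transcripts apart.
Ddx46-201: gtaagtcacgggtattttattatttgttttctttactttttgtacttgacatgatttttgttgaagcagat
Ddx46-202: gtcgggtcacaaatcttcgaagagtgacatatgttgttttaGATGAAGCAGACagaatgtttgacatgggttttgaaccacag

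Ddx46-202 had 411, 468 and 589 normalized counts in Sham and 460.2, 552 and 631 in HF-HI. The groups overlapped over most of their range, and 2 of 8 HF-HI libraries lay above every Sham library. The VSD difference was 0.06 ± 0.03 (SE), with an unadjusted p = 0.0487 and an adjusted p = 0.562 in limma. The exact two-sided permutation p was 0.0629, which missed 0.05. This transcript call in limma was lost with the log2 size factor in the model, and without any 1 of HF-HI replicates 3, 4, 5, 6 and 8 and Sham replicates 1, 2, 4, 5 and 6, with VSD differences of 0.05 to 0.08 over the 15 omissions. Ddx46-201 had 28.1, 145 and 175 normalized counts in Sham and 65.4, 113 and 185 in HF-HI. On the VSD scale it had a difference of −0.00 ± 0.05 (SE) and an exact two-sided permutation p = 0.869.

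The sum of both transcripts was far steadier than either. Summed Ddx46 had 586, 609.6 and 632 normalized counts in Sham and 613, 664 and 725 in HF-HI, and 7 of 8 HF-HI libraries lay above every Sham library. The coefficient of variation of the sum was 2.76% in Sham and 5.61% in HF-HI, beside 12.9% and 10.1% for Ddx46-202 and 42.9% and 33.9% for Ddx46-201. Over the 15 libraries the transcripts had a Pearson correlation of −0.78, as a description of libraries that share the estimate dividing their reads. The mean was 609 ± 16.8 (SD, n = 7) in Sham and 667 ± 37.4 (SD, n = 8) in HF-HI, 9.63% higher. The log2 difference of the gene was 0.13 ± 0.04 (SE), with an unadjusted p = 0.00291 and an adjusted p = 0.276 in limma voom. The exact two-sided permutation p was 0.00186. After adjustment over all genes the permutation p was 0.229. The gene-level call held in all 15 omissions of a library, with log2 differences of 0.11 to 0.15, and with the log2 size factor in the model, where the difference was 0.11. No 50-base window of Ddx46 occurs in another annotated gene.

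**Figure D4:**
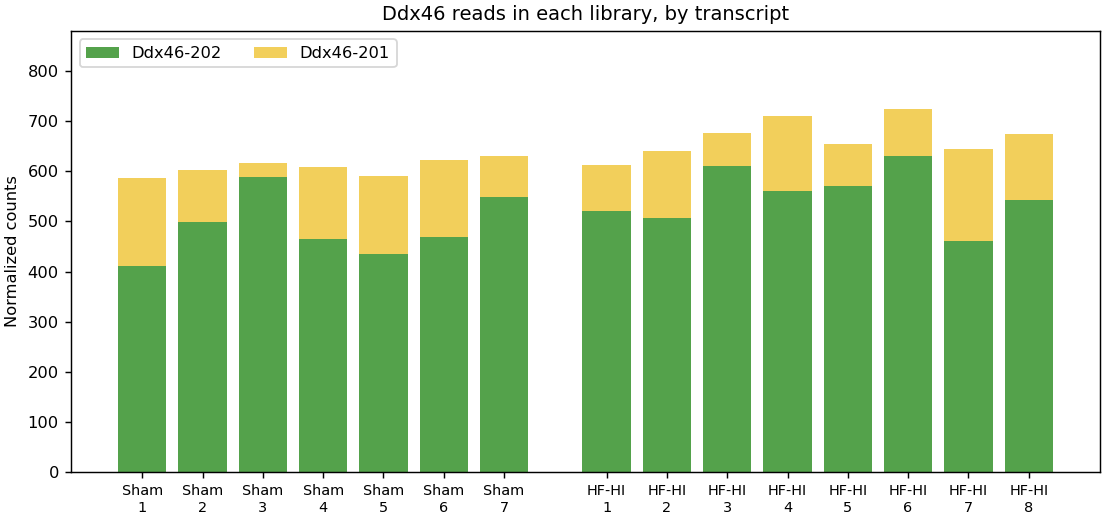
Normalized counts of Ddx46 in each library, divided into Ddx46-202 (lower part) and Ddx46-201 (upper part). Whole bars reach 586 to 632 for the Sham libraries and 613 to 725 for the HF-HI libraries, while the share of Ddx46-201 lies between 4.55% and 29.9%.

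Helicases assigned to splicing made up 11 genes and 12 transcripts. Dhx8 and Ddx46-202 were the 2 transcripts called higher and 0 were called lower, beside 4.94% of all transcripts called higher and 8.83% in either direction, with a median VSD difference of 0.01, beside −0.00 over all transcripts. Dhx15 had 688, 719 and 765 normalized counts in Sham and 709.8, 734 and 795 in HF-HI, and 7 of 8 HF-HI values exceeded the median of the Sham group. Its log2 difference per gene was 0.03, with an exact two-sided permutation p = 0.211. Ddx39b, which serves both spliceosome assembly and mRNA export, had 356, 402 and 528 normalized counts of its coding transcript in Sham and 325, 392 and 460.3 in HF-HI. Here 3 of 8 HF-HI libraries lay below every Sham library, but the groups overlapped, with a VSD difference of −0.04 and an exact two-sided permutation p = 0.282. The rest of the genes assigned to this group, Ddx23, Ddx41, Ddx42, Dhx16, Dhx32, Dhx38 and Dhx40, did not pass.

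The coregulators of transcription and RNA processing, 4 genes, were the most abundant group, with a median of 358 normalized counts per kb and log2 differences confined to between 0.01 and 0.03. Ddx5-201 had 5269, 5519.7 and 5724 normalized counts in Sham and 5292, 5457 and 5851 in HF-HI, with overlapping groups and an exact permutation p = 0.770. Of its 50-base windows, 22.7% also occur in other annotated genes, namely Gm12183 and Gm32526. Ddx17 had 2318, 2401 and 2542 in Sham and 2366, 2467 and 2559 in HF-HI, with an exact permutation p = 0.441. Both paralogs covered overlapping ranges in the groups. Ddx1, a subunit of the tRNA ligase complex, had 866, 948 and 1016 normalized counts in Sham and 911, 967 and 1069 in HF-HI, with an exact permutation p = 0.389. Dhx9, also called RNA helicase A, had 834, 892 and 1021 in Sham and 821, 905 and 956 in HF-HI, with an exact permutation p = 0.813. For the genes Ddx5 and Ddx17 the 95% intervals of the log2 difference were −0.03 to 0.08 and −0.04 to 0.07.

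Ribosome biogenesis was represented by 10 genes with 1 transcript each. Ddx10 alone had an unadjusted p under 0.05, and the median log2 difference of the group was 0.03, between −0.08 and 0.13. Ddx24 had 943, 1008 and 1136 normalized counts in Sham and 905, 996 and 1102 in HF-HI, with overlapping groups and an exact permutation p = 0.558. Ddx21 had 185, 205 and 216 in Sham and 192, 209 and 236 in HF-HI, with an exact permutation p = 0.208. Its close paralog Ddx50, with a DEVD box like Ddx21, lay between Ddx42 and Dhx36 in the order of levels. Ddx47 had 137.6, 168.8 and 190.9 normalized counts in Sham and 91.9, 168.5 and 180.9 in HF-HI. The value of 91.9 was in HF-HI replicate 4, the library with the fewest reads, and the next lowest HF-HI value was 134.0. The 95% interval of Ddx47 on the log2 scale was −0.31 to 0.15.

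Helicases assigned to export, translation and decay comprised 6 genes and 7 transcripts, of which Ddx19b had an unadjusted p under 0.05. Ddx6 had 2022, 2169.8 and 2209 normalized counts in Sham and 2040.2, 2191 and 2399 in HF-HI. In HF-HI 4 of 8 libraries lay above every Sham library, with a log2 difference of 0.04 and an exact permutation p = 0.240. Dhx36, which unfolds G-quadruplexes, had 699, 749 and 794 normalized counts in Sham and 702, 763 and 779 in HF-HI. Its groups overlapped, with a 95% interval of the log2 difference from −0.07 to 0.08. Ddx25 had 190.2, 220.3 and 239 in Sham and 178, 213 and 235 in HF-HI, with an exact permutation p = 0.672. Dhx29 had 163, 203 and 237 in Sham and 166, 194 and 215 in HF-HI, with an exact permutation p = 0.567.

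For 4 helicase genes the division of reads between transcripts could be followed. The share test in limma, on the log2 odds of a share, gave none of their 8 transcripts a p under 0.05, beside 6.14% of all transcripts tested. Each gene had 2 transcripts with values whose shares mirror each other, so the 8 tests amount to 4 comparisons. Ddx5-208, annotated as a target of nonsense-mediated decay, took 20.8% to 26.3% of Ddx5 reads in Sham and 22.0% to 30.3% in HF-HI, with means of 23.2% and 24.1% and an exact permutation p = 0.522. Ddx39b-204, a retained-intron transcript without the last exons, took 35.0% to 47.6% in Sham and 38.8% to 53.8% in HF-HI. Its mean share was 41.3% in Sham and 45.5% in HF-HI, with an exact permutation p = 0.143. These transcripts are no members but belong to member genes, and their shares overlapped between the groups.

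Dhx57-201 and Dhx57-202 are both protein coding and differ at their ends and by an exon of 159 bases in Dhx57-202. Dhx57-201 took 29.3% to 59.8% of the reads in Sham and 19.0% to 58.8% in HF-HI, with an exact permutation p = 0.521. As with Ddx46, the transcripts ran opposite to each other, with a Pearson correlation of −0.85 over 15 libraries, and their sum had a coefficient of variation of 3.33% in Sham and 7.53% in HF-HI. For Ddx5 and Ddx39b the correlation was −0.23 and −0.45.

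**Figure D5:**
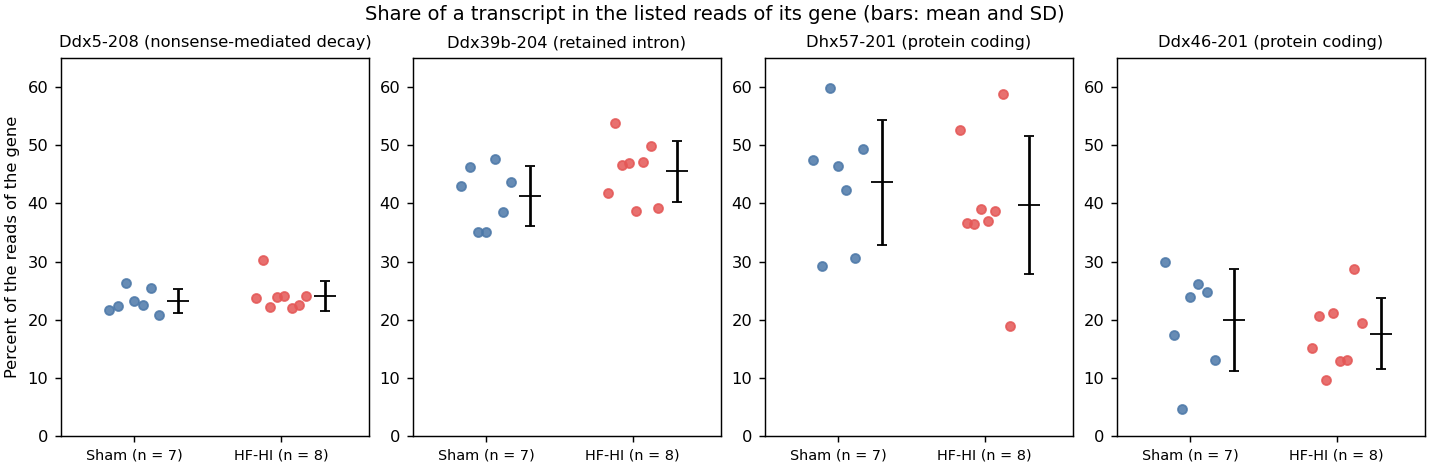
Share of a transcript in the reads of its gene, in percent, in each Sham and HF-HI library, with the mean and SD as bars, for Ddx5-208, Ddx39b-204, Dhx57-201 and Ddx46-201. Ddx5-208 keeps to 20.8% to 30.3%, while Dhx57-201 spreads from 19.0% to 59.8%.

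Genes that work with these helicases were read from the same fit, with their transcripts of any type, not only protein-coding ones. By the same rule in limma, 0 of 20 transcripts of other RNA helicases were called higher and 2 lower, or 10%, near the 8.83% of all transcripts. These were the exosome helicase Skiv2l, with 250.4, 306 and 361 normalized counts in Sham and 221, 258 and 289 in HF-HI (exact permutation p = 0.00513), and Eif4a3 of the exon junction complex, with 276, 345 and 361 in Sham and 264, 304 and 309 in HF-HI (exact permutation p = 0.0367). Both overlapped between the groups, with every HF-HI value under the median of the Sham group. After adjustment over all transcripts the permutation p was 0.334 for Skiv2l and 0.520 for Eif4a3. Partners of Ddx6 in decapping and P-bodies had 3 of 27 transcripts higher and 0 lower, or 11.1%, also near that share. They were a transcript of Tnrc6b and 2 transcripts of Tnrc6c, a protein-coding and a retained-intron transcript. Tnrc6b had 1721, 1747 and 1913 normalized counts in Sham and 1806, 1918 and 2028 in HF-HI (exact permutation p = 0.00482). For Tnrc6b the permutation p was 0.334 after adjustment.

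Among spliceosome core genes and helicase cofactors, 1 of 27 transcripts was higher (a processed transcript of Gpatch8, not annotated as protein coding) and 1 lower (Rbm17). The exon junction complex and nonsense-mediated decay had 0 higher and 1 lower (Eif4a3) of 17, and TREX and nuclear export 0 higher and 1 lower (Thoc7) of 14. In the microprocessor and microRNA pathway 1 of 8 was higher (Ago3). These counts are between 5.88% and 12.5% of each list, beside the same 8.83%. No transcript of these lists had an adjusted p under 0.1 in limma, and the smallest was 0.373.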

How the data were processed

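Cortical total RNA of 7 Sham and 8 HF-HI samples was analysed. The libraries were stranded and depleted of ribosomal RNA. By the methods of the study, the authors aligned reads to mm10 with STAR and estimated counts per transcript with eXpress. They used DESeq2 for normalization and for the test between groups, with a Benjamini-Hochberg threshold of 0.1. The annotation release is not given in the sources used here. The authors deposited variance-stabilized values on a log2 scale, which compress differences, most at low counts. For Ddx19b the log2 ratio of the group means was 0.133 and the VSD difference 0.0412. For the more abundant Ddx6 they were 0.0460 and 0.0276. Sizes of VSD differences are thus not comparable between genes of unlike level. Of 10370 transcripts, 129 had no GENCODE M21 entry.

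Inverting the transformation gave normalized counts and whole reads for 100.0% of values within 0.1 reads. These are the authors' rounded estimates and cover the listed transcripts only.

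limma 3.58.1 (R 4.3.3) was fitted over all features, two-sided, with group as the only term: eBayes with trend on the deposited values, voom on reads summed per gene, and the log2 odds of transcript shares with 0.5 reads added. P-values were adjusted with Benjamini-Hochberg at 0.1, and counts at an unadjusted p under 0.05 are given as well. Code was tested on simulated data. An exact two-sided permutation of group means over all 6435 divisions of the libraries was added after seeing the data, and gives the p-values of single members. It gave an unadjusted p under 0.05 for 9.12% of all transcripts and 9.95% of all genes. Samples that share a replicate number had correlations of deviations from −0.14 to 0.09, so numbers were not taken as pairs. Alternatives in the closing section changed the prior, scaling, filter, depth term, block, summed transcripts and libraries.

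Named members were those at an unadjusted p under 0.05, the 5 highest and 3 lowest genes per kb, and a fixed set (Ddx1, Ddx5, Ddx6, Ddx17, Ddx39b, Ddx46, Dhx9, Dhx15, Dhx30, Dhx36). Of the fixed set, Dhx30 had no protein-coding transcript with values. Ddx47, Dhx32, Dhx57 and Ddx50 were added after their values were seen. Members, gene lists and roles were chosen with earlier results of these data known.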

Additional observations from a re-analysis of the deposited data

Results flagged for a closer look

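In 1 of 34 groups of helicase values tested for an outlying library, 1 library stood apart: Dhx9 in Sham replicate 5 had 1021 normalized counts, while the next highest Sham library had 894 and the lowest 834. Chance flags about 1 in 20 such groups. The cause was not tested.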

How the results depend on the processing

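Ddx19b kept an unadjusted p under 0.05 in limma under all 11 alternatives and all 15 omissions of a library, and so did the gene-level test of Ddx46 under 6 alternatives and 15 omissions. The count of 4 helicase transcripts, all higher, became 2 with only libraries of a size factor above 1, with the log2 size factor as a covariate and with means over 300 normalized counts, where fewer transcripts or libraries enter or depth overlaps the groups. Over all transcripts the count of 916 became 541, 533 and 525 under these, and over all genes the count of 731 became 475 with the size factor. Ddx10 and Dhx8, with means of 212 and 276 normalized counts, did not enter under the filter on means. With the replicate block 1 helicase transcript (Ddx19b) was left, beside 891 over all transcripts. Single omissions gave 2 to 4 helicase transcripts (2 without HF-HI replicate 8, Sham replicate 2 or Sham replicate 6). Over all transcripts the omissions gave 748 to 987. Helicase genes numbered 3 to 5 (5 without HF-HI replicate 1), beside 610 to 808 over all genes. With the exact permutation, chosen after seeing the data, Ddx46-202 lost its call and the gene Dhx8 gained one. The median difference of the helicase transcripts was 0.00557 on the VSD scale. It was 0.0178 on log2 of counts plus 1 and 0.0147 with voom, scales that compress less.

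Signs reversed for differences that were not called. With size factors above 1 they were Ddx17 −0.00127, Ddx25 0.00804 and Dhx15 −0.00156. On log2 of counts plus 1 they were Ddx46-201 0.0658 and the gene Ddx39b −0.00442, which was −0.0764 from protein-coding transcripts only and −0.00356 in the exact permutation. With the depth covariate they were Ddx1 −0.000982 (gene −0.00278) and Dhx29 0.00525, with quantile normalization Ddx5 −0.00351, and with the replicate block Dhx36 −8.84e-05 (gene −0.00264) and the gene Dhx9 −0.00483. Over the 15 omissions the VSD difference ran from −0.0135 to 0.00204 for Ddx25, −0.0431 to 0.0197 for Ddx46-201, −0.00363 to 0.0131 for Ddx5, −0.0198 to 0.000864 for Dhx29, −0.00541 to 0.00725 for Dhx36 and −0.00253 to 0.0195 for Dhx9. Per gene the log2 difference in voom ran from −0.0464 to 0.0154 for Ddx25, −0.0209 to 0.0390 for Ddx39b, −0.00767 to 0.0221 for Dhx36 and −0.00193 to 0.0482 for Dhx9. The log2 odds of the Ddx46-202 share ran from −0.0507 to 0.471 and of Ddx46-201 from −0.471 to 0.0507. The cause was not tested.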
